A study of Mus musculus with 14 samples.

Results

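*Sost*, its sequence relative *Sostdc1*, the sclerostin receptor gene *Lrp4* and the genes of the MEF2C, class IIa HDAC and SIK relay that is known to act on *Sost* were followed through the differentiation and sorting of Ocy454 osteocyte-like cells. The 10 genes were listed by name for their roles, with earlier results of these data known. They are *Sost*, *Sostdc1*, *Lrp4*, *Mef2c*, *Mef2a*, *Mef2d*, *Hdac4*, *Hdac5*, *Sik2* and *Sik3*, 10 of the 39179 genes in the differentiation table and of the 35886 genes summed from transcripts in the sorted cells. *Sostdc1* had no read in any library, and the other 9 genes passed the filters on low values in both experiments. *Sost* passed the filter of the differentiation experiment, a CPM above 1 in at least 1 library, only through its values at days 10 and 14.

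*Sost* encodes sclerostin, a secreted inhibitor of Wnt signalling that is made mainly by mature osteocytes and restrains bone formation. Sclerostin binds the Wnt co-receptors LRP5 and LRP6, and LRP4 on the cell surface holds sclerostin and aids its action. MEF2 transcription factors, MEF2C above all, drive *Sost* through an enhancer that lies downstream of the gene, and the class IIa histone deacetylases HDAC4 and HDAC5 bind MEF2 proteins and block their activity once they enter the nucleus. The kinases SIK2 and SIK3 phosphorylate HDAC4 and HDAC5, which keeps them in the cytoplasm with 14-3-3 proteins. Parathyroid hormone, through cAMP and protein kinase A, inhibits these kinases and thereby lowers *Sost*. Much of this control acts on the phosphorylation and location of proteins, which RNA levels do not show.

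Ocy454 is a mouse line immortalized with a heat-labile large T antigen, which every library shares. The line divides at 33 °C, where the antigen is active. Confluent cultures were differentiated at 37 °C, where it is not. The labels name no edited gene and no drug for the 14 libraries compared, and every library came from this 1 immortalized line rather than from osteocytes in bone. The differentiation experiment held 2 biologic replicates each at days 1, 7, 10 and 14 at 37 °C. The sorting experiment held 3 libraries of CD61 high cells and 3 of CD61 low cells. These were the 10% of live cells with the most and the least CD61 (integrin beta-3) on their surface on day 17. The paper describes 3 independent groups of cells for this sort, so a high and a low library may share a culture. Values of the differentiation experiment are CPM as deposited, and values of the sorted cells are CPM scaled by TMM, so levels of the 2 experiments were not compared with each other.

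The differentiation libraries held 27518605 to 34311238 reads counted on genes, and the sorted libraries 18815602 to 19220064 estimated counts. TMM factors were 1.096 to 1.128 in the CD61 low libraries and 0.895 to 0.909 in the CD61 high libraries, so the scaling of the sort moved with the group. Of 12 osteoblast and osteocyte markers, *Sost* itself among them, 10 were above 1 CPM in every library of days 10 and 14. *Fgf23* had no read in the differentiation experiment and *Mepe* stayed below 0.5 CPM. Summed markers of adipocytes (5 genes) and of endothelial cells (4 genes) were below 1 CPM in every library. Of 6 skeletal muscle markers only *Acta1* was above 1 CPM, and of 6 macrophage and osteoclast markers only *Cd68* was. The 5 chondrocyte markers summed to 66.7 to 122 CPM in the differentiation libraries, 37.5 to 47.3 CPM among the CD61 low and 97.2 to 113 CPM among the CD61 high libraries, and their part in the results of the sort was not tested.

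Annotated promoters give the places where the main members are listed to start and what sequence lies there. No start of transcription was measured. RefSeq holds promoters, from 250 bases before to 50 bases after the start, for 8 of the 10 members (GRCm38.p6), 10 in all because *Mef2c* has 3. They were searched on both strands for the MEF2 consensus (10 letters, A and T rich), the RUNX core TGTGGT, the core of the cAMP response element, TGACG and the TATA box letters TATAAA. A match is a description of letters and not a binding site. The MEF2 consensus and TATAAA can overlap, which no match in these promoters did. The promoters of *Sost* (chr11:101966966-101967265, minus strand), *Hdac5* (chr11:102230123-102230422, minus strand), *Mef2a* (chr7:67372809-67373108, minus strand) and the promoter of *Mef2c* that lies farthest downstream (chr13:83573357-83573656, plus strand) are given 5′ to 3′, because *Sost* and *Mef2c* carry the main changes and the other two hold the MEF2 consensus. Capitals mark matches.
*Sost* promoter: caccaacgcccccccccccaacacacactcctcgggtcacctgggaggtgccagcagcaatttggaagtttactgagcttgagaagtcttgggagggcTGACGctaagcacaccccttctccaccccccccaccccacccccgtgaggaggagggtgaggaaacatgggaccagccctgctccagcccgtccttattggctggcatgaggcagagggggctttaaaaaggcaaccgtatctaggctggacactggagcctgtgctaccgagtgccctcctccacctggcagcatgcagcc
*Hdac5* promoter: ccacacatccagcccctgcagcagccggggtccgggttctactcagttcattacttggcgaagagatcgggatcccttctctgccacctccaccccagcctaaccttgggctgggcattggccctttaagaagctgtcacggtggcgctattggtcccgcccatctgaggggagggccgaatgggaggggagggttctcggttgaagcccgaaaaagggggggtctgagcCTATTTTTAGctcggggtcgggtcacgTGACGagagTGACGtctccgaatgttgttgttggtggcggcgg
*Mef2a* promoter: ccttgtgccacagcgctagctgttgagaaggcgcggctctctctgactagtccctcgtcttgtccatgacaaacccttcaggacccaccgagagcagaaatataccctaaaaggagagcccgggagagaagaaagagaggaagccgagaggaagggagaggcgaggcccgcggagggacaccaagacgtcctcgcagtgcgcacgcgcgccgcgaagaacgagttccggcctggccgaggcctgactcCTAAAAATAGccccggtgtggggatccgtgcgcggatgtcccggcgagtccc
*Mef2c* downstream promoter: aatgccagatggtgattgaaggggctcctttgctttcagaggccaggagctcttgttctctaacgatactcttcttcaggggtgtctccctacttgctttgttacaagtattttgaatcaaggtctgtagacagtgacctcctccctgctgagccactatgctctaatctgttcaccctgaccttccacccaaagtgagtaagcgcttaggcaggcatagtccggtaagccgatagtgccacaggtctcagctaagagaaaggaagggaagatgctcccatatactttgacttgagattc

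Of the 10 promoters, those of *Mef2a* and *Hdac5* held the MEF2 consensus, beginning 2 and 20 bases before the start. It was found in 3.19% of all 32851 promoters of this length in the table. *Sost* held no MEF2 consensus, no TGTGGT and no TATAAA, and 1 TGACG that began 152 bases before its start. TGACG was present in 20.8% of all promoters, TGTGGT in 16.8% and TATAAA in 13.6%. *Hdac4* and *Sik3* held 3 TGACG matches each, and *Hdac5* and *Sik2* 2 each. The other two promoters of *Mef2c* each held 1 TATAAA match, and the downstream one held none of the 4 motifs.

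Because the known enhancer of *Sost* lies between this gene and its neighbour *Meox1*, the 68056 bases between them (chr11:101785228-101853283, GRCm39) were searched for the MEF2 consensus too. There were 7 matches, or 0.103 per kb, against 0.213 per kb over chromosome 11. They are given on the strand of *Sost*, from the farthest downstream to the nearest, with the consensus in capitals and 10 bases on each side, as the places where a MEF2 protein could be looked for.
chr11:101797325-101797354: aataagcacaTTAAAAATAGccttcacaac
chr11:101812566-101812595: tcccaatgctCTATAAATAGtctctcctga
chr11:101820932-101820961: tgagactgggCTAAATTTAAgccctgtcac
chr11:101836223-101836252: cactgttgtgTTATATATAAgaggtggtgg
chr11:101836524-101836553: tgaaaacaacCTAAAATTAAtaattgatga
chr11:101838053-101838082: agaaccatcaTTAAAAATAAgatttgagcc
chr11:101846774-101846803: ctgagagcacTTATTAATAGgtggcttaga
They lay between 11.1 and 60.5 kb downstream of the *Sost* start. No binding was measured, and which of them, if any, belongs to the enhancer is not shown by these files.

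The comparisons between days ask how these genes change as the cells mature, and the sort asks how they differ between cells of one culture age with high or low CD61. A gene counted as called when its adjusted p was under 0.01 and its Log2FC was beyond 1 in either direction. From day 1 to day 7 the members called were *Mef2c* and *Lrp4*, 2 of 9 tested, while 9.11% of all genes tested were called, 4.49% higher and 4.62% lower. From day 7 to day 10 it was *Sost* alone, while 2.22% of all genes were called, 1.43% higher and 0.786% lower. From day 10 to day 14 it was again *Sost* alone, while 2.96% of all genes were called, 2.09% higher and 0.872% lower. Over the whole course, day 14 against day 1, it was *Sost* and *Mef2c*, while 13.4% of all genes were called, 7.51% higher and 5.90% lower. In the sort it was *Sost* and *Lrp4*, while 9.22% of all genes were called, 4.84% higher and 4.37% lower in CD61 high cells. Each of these member calls was an increase. Over the 9 members tested the median Log2FC was 0.73, 0.15, -0.24, 0.78 and 0.55 in these comparisons in turn, where that of all genes tested was -0.05, 0.07, -0.04, -0.03 and 0.00.

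**Figure D1:**
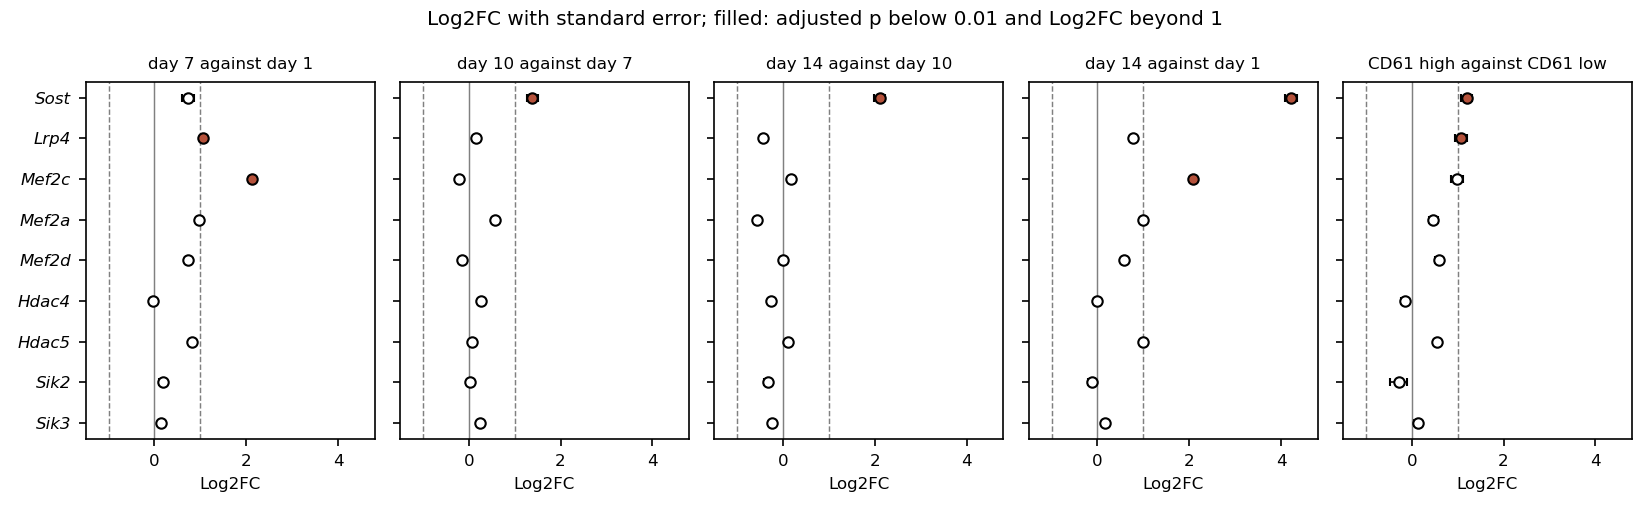
Log2FC (horizontal axis) of the 9 tested members in 5 comparisons, one panel each, with bars for the standard error, dashed lines at 1 and -1, and filled points for called genes. *Sost* is the only member called in both later steps, while *Mef2c* sits at 2.13 for day 7 against day 1 and near 0 in the steps that follow.

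*Sost* was not detected on day 1 and rose at every later step. Its single annotated transcript has 2 exons (chromosome 11, 101853284 to 101857847 on the minus strand of GRCm39). Neither day 1 library had a read on *Sost*, which allows up to 0.0456 CPM (3 reads over both libraries, counting error only). On day 7 the libraries held 22 and 19 reads, or 0.660 and 0.669 CPM. They had 3.45 and 3.26 CPM on day 10, and 619 and 477 reads, or 18.04 and 17.3 CPM, on day 14. No day overlapped with another. The day 7 mean was at least 14.6-fold higher than day 1 and the day 14 mean at least 388-fold higher, taking day 1 at its limit of 3 reads over both libraries. From day 7 to day 10 the mean rose 5.04-fold and from day 10 to day 14 5.28-fold. The Log2FC on the log2(CPM + 1) scale, which understates the change of low genes, was 1.39 from day 7 to day 10 (standard error 0.13, adjusted p = 7.6e-10) and 2.10 from day 10 to day 14 (standard error 0.13, adjusted p = 1.9e-13). From day 1 to day 7 it was 0.73 (adjusted p = 1.4e-05), below the threshold of 1, whereas edgeR and DESeq2 on the recovered reads and a pseudocount of 0.1 called this step too.

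In the sorted cells *Sost* was 2.29-fold higher in CD61 high than in CD61 low cells. The CD61 low libraries had 17.6, 14.3 and 15.8 CPM and the CD61 high libraries 41.7, 34.5 and 33.1 CPM. The groups did not overlap, and the lowest CD61 high library was well above the highest CD61 low one. By edgeR the Log2FC was 1.197 (standard error 0.12, Benjamini-Hochberg adjusted p = 1.9e-05). With scaling by library size alone, under which the median of all genes moved to -0.29, the Log2FC of *Sost* was 0.90 and the gene was not called. A test against a Log2FC of 1 did not call it either (adjusted p = 0.30). In bulk samples, more cells that express a gene and more RNA per cell cannot be told apart.

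**Figure D2:**
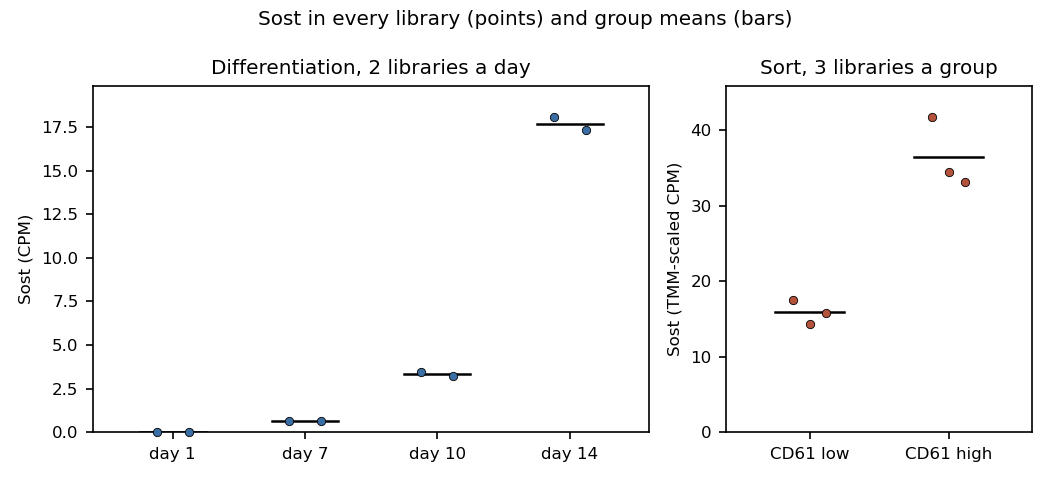
*Sost* in every library, as CPM by day on the left and TMM-scaled CPM by CD61 sort group on the right, with points for libraries and horizontal bars for group means. The day 14 libraries sit at 18.04 and 17.3 CPM, above all earlier days, and the 3 CD61 high libraries sit between 33.1 and 41.7 CPM, above all CD61 low libraries.

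*Sostdc1*, which encodes a secreted antagonist of BMP and Wnt signalling that is close to sclerostin in sequence, was listed at 0 in all 14 libraries. It lies on chromosome 12 (36364137 to 36368451, plus strand). The 0 of 250823570 reads in the differentiation experiment allows a level of up to 0.0120 CPM, and the 0 of 114279629 estimated counts in the sort up to 0.0263 CPM. *Nbl1*, which encodes a secreted BMP antagonist of the cystine-knot kind, was called higher with *Sost* for day 10 against day 7 (Log2FC 1.17). It had 131 ± 0.706 CPM on day 10 and 75.3 ± 4.09 on day 14 (SD, n = 2), a step over which *Sost* went on rising. In the sort it was called higher in CD61 high cells (Log2FC 1.09).

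*Lrp4*, the receptor that retains sclerostin at the cell surface, rose early and was lower again by day 14. It lies on chromosome 2 (91287797 to 91344248, plus strand). Its libraries had 172 and 163 CPM on day 1, 359 and 342 on day 7, 393 and 387 on day 10, and 306 and 270.2 on day 14. Day 1 was the lowest and day 10 the highest, with no overlap between days. The Log2FC was 1.06 from day 1 to day 7 (standard error 0.05, adjusted p = 4.1e-17) and fell by 0.44 from day 10 to day 14 (adjusted p = 5.3e-09), a decrease that passed the p threshold but not that on the fold change. In the sort the CD61 low libraries had 121, 107 and 148 CPM and the CD61 high libraries 303, 232 and 257 CPM. The groups did not overlap and *Lrp4* was 2.11-fold higher in CD61 high cells (Log2FC 1.08, standard error 0.13, adjusted p = 7.3e-05). This call sits close to the threshold, since the Log2FC was 0.97 without CD61 low replicate 2 or without CD61 high replicate 1 and 0.78 with scaling by library size alone. Nearly all of the *Lrp4* estimate, 97.1 ± 0.885% in CD61 low and 97.6 ± 0.684% in CD61 high cells (SD, n = 3), fell on 1 transcript of 38 exons.

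The Wnt co-receptors *Lrp5* and *Lrp6*, on which sclerostin acts, went different ways. *Lrp5* had 64.0 ± 2.27 CPM on day 1 and 386 ± 6.10 on day 14 (SD, n = 2), and its Log2FC was 2.57 (standard error 0.04, adjusted p = 1.8e-27). *Lrp6* had 222 ± 12.7 CPM on day 1 and 159.8 ± 16.0 on day 14 (Log2FC -0.47, adjusted p = 3.6e-09), short of the threshold on the fold change. In the sort *Lrp5* had a Log2FC of 1.57 and was called, and *Lrp6* had one of -0.0017 (standard error 0.13, adjusted p = 0.99). *Agrn*, the secreted ligand of LRP4 at the neuromuscular junction, was called higher on day 7 and for day 14 against day 1 (Log2FC 2.16 and 2.28), and lower for day 10 against day 7 (Log2FC -1.101). Of the 8 genes in this list of co-receptors and partners of LRP4, 6 were tested, and 2 were called higher and 0 lower for day 14 against day 1, where 7.51% of all genes were called higher. *Musk*, the muscle kinase that LRP4 serves, stayed below 0.15 CPM in the differentiation libraries.

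*Mef2c* rose from day 1 to day 7 and then stayed high. It encodes the MEF2 factor known to drive *Sost* and lies on chromosome 13 (83652064 to 83815555, plus strand). The day 1 libraries had 184 and 181 CPM, those of day 7 824 and 781 CPM, those of day 10 672 and 707 CPM and those of day 14 777 and 773 CPM. All 6 later libraries were above both day 1 libraries, and day 10 was the lowest of the 3 later days. The mean was 4.40-fold higher on day 7 than on day 1 (Log2FC 2.13, standard error 0.04, adjusted p = 1.2e-25). It then changed by a Log2FC of -0.22 to day 10 (adjusted p = 1.8e-05) and of 0.17 to day 14 (adjusted p = 0.00035). Over these last 2 steps *Sost* rose 5.04-fold and 5.28-fold.

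In the sort the CD61 low libraries had 246, 236 and 318 CPM of *Mef2c* and the CD61 high libraries 579.9, 463 and 542 CPM. The groups did not overlap on this scale, though by TPM they did, CD61 low replicate 3 being the highest of its group. The ratio of means was 1.98 and the Log2FC 0.99 (standard error 0.12, adjusted p = 9.2e-05), just short of the threshold of 1. Without CD61 low replicate 3 it was 1.11 and without CD61 high replicate 2 it was 1.07, so that *Mef2c* was called in both of these fits.

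*Mef2a* and *Mef2d*, which encode the other 2 MEF2 factors detected at these levels, rose less than *Mef2c*. *Mef2a* (chromosome 7, 66880911 to 67022606, minus strand) had 163 and 157 CPM on day 1, 325 and 309 on day 7, 467 and 480.2 on day 10, and 323 and 312 on day 14. It peaked on day 10, where *Mef2c* had its lowest value after day 1, and its mean on day 14 (318 CPM) was close to that on day 7 (317 CPM). The Log2FC was 0.98 to day 7, 0.58 from day 7 to day 10 (adjusted p = 1.2e-12) and fell by 0.58 from day 10 to day 14 (adjusted p = 9.4e-13). For day 10 against day 1, a comparison added after the data had been seen, it was 1.56 (standard error 0.04, adjusted p = 1.4e-22), and *Sost*, *Lrp4*, *Mef2c* and *Mef2a* were the 4 members called, where 10.5% of all genes were, 6.06% higher and 4.42% lower. *Mef2d* (chromosome 3, 88049185 to 88079398, plus strand) had 85.3 and 84.4 CPM on day 1, 142 and 139 on day 7, 119.8 and 134 on day 10, and 128 and 127 on day 14. Its 6 later libraries were all above day 1, with a Log2FC of 0.72 on day 7 (standard error 0.05, adjusted p = 1.7e-13).

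Both were also higher in CD61 high cells without reaching the threshold on the fold change. *Mef2a* had 225, 222 and 272 CPM among the CD61 low and 373, 293 and 331 CPM among the CD61 high libraries (Log2FC 0.47, standard error 0.11, adjusted p = 0.0041). *Mef2d* had 144, 137 and 167 CPM among the CD61 low and 229, 219 and 231 CPM among the CD61 high libraries (Log2FC 0.60, standard error 0.08, adjusted p = 0.00020). On this scale neither gene's groups overlapped. By TPM they did, *Mef2a* with 106 to 142 TPM in CD61 low and 103.6 to 157 TPM in CD61 high libraries, and with scaling by library size alone *Mef2a* no longer passed the test (Log2FC 0.17, adjusted p = 0.15). *Mef2b* was listed at 0 in the differentiation table and had 1.85 ± 0.553 CPM among the CD61 low and 2.50 ± 0.970 CPM among the CD61 high cells (SD, n = 3).

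Levels of different genes were compared only per length, as CPM per kb of the gene length in the table or as TPM in the sort. By CPM per kb, *Mef2c* made up 44.0 ± 0.226% of the MEF2 family on day 1, 65.1 ± 0.235% on day 7, 55.6 ± 0.0423% on day 10 and 65.1 ± 0.285% on day 14 (SD, n = 2). *Mef2d* went from 22.8% on day 1 to 11.9% on day 14. By TPM, *Mef2c* made up 41.3 ± 2.18% of the family in CD61 low and 49.02 ± 3.30% in CD61 high cells (SD, n = 3). *Mef2c* was thus the largest share in every group.

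**Figure D3:**
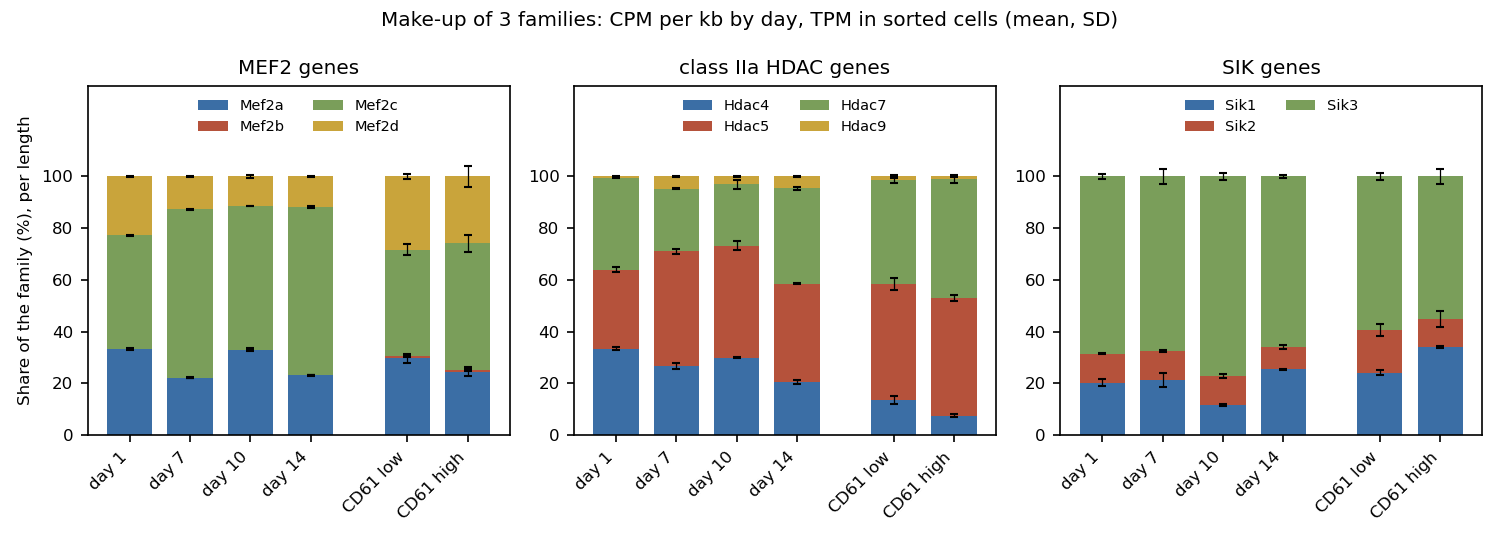
Make-up of the MEF2, class IIa HDAC and SIK families in percent of each family's summed level per length (CPM per kb by day, TPM in sorted cells), as stacked bars of group means with SD for each gene. The *Mef2c* share is larger on day 7 than on day 1, and the *Hdac4* share is smaller on day 14 and in CD61 high cells than on day 1 and in CD61 low cells.

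*Hdac5* rose and *Hdac4* did not. Both encode class IIa histone deacetylases that bind MEF2 factors. *Hdac5* (chromosome 11, 102085245 to 102121072, minus strand) had 75.7 and 77.6 CPM on day 1, 132 and 139 on day 7, 139.9 and 145 on day 10, and 149 and 157 on day 14. All 6 later libraries were above both day 1 libraries, and the later steps, with a Log2FC of 0.07 (adjusted p = 0.14) and 0.10 (adjusted p = 0.033), did not pass the test. The Log2FC was 0.81 on day 7 (standard error 0.04, adjusted p = 2.6e-15) and 0.99 for day 14 against day 1 (adjusted p = 2.3e-17), at the edge of the threshold. *Hdac4* (chromosome 1, 91855937 to 92123421, minus strand) had 41.9 and 40.3 CPM on day 1, 41.1 and 39.1 on day 7, 49.2 and 48.0 on day 10, and 40.6 and 40.3 on day 14. It stood higher on day 10 alone, with a Log2FC of 0.27 from day 7 to day 10 (adjusted p = 0.00013), followed by one of -0.26 to day 14 (adjusted p = 0.00019). For day 14 against day 1 the Log2FC was -0.02 (standard error 0.05, adjusted p = 0.74), and its sign changed with the scaling. The differentiation table lists a second identifier under the name *Hdac4* that is not in the annotation used here, with 16.7 to 24.6 CPM, so the reads of this locus may be split. Its day means were also highest on day 10.

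*Hdac5* was also higher in CD61 high cells, and *Hdac4* did not pass the test. *Hdac5* had 127, 119 and 132 CPM among the CD61 low and 192, 177 and 185 CPM among the CD61 high libraries, without overlap (Log2FC 0.55, standard error 0.07, adjusted p = 0.00012). *Hdac4* had 71.2, 69.8 and 85.0 CPM among the CD61 low and 71.7, 62.9 and 69.8 CPM among the CD61 high libraries, and these overlapped (Log2FC -0.15, standard error 0.09, adjusted p = 0.22). With scaling by library size alone its Log2FC was -0.45 (adjusted p = 0.0013). By TPM the *Hdac4* share of the 4 class IIa genes was 13.6 ± 1.60% in CD61 low and 7.45 ± 0.705% in CD61 high cells (SD, n = 3). By CPM per kb it was 33.3% on day 1 and 20.4% on day 14, counting the first *Hdac4* identifier alone, so that these shares depend on how the reads of the locus were split.

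The relatives *Hdac7* and *Hdac9* were given beside them because both encode class IIa deacetylases that bind MEF2 factors. *Hdac7* had 73.4 ± 1.11 CPM on day 1, 64.8 ± 5.73 on day 10 and 123 ± 5.63 on day 14 (SD, n = 2), a Log2FC of 0.91 over the last step (adjusted p = 6.2e-14). *Hdac9*, itself a known MEF2 target, went from 0.791 ± 0.0340 CPM on day 1 to 7.91 ± 0.161 on day 7 and 10.3 ± 0.548 on day 14, and was called for day 14 against day 1 (Log2FC 2.66, adjusted p = 1.9e-17). In the sort *Hdac7* had a Log2FC of 0.89 (adjusted p = 2.7e-06) and *Hdac9* one of 0.33 (adjusted p = 0.28).

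*Sik2* and *Sik3*, the kinases that hold HDAC4 and HDAC5 in the cytoplasm, did not reach the threshold on the fold change in any comparison. *Sik3* (chromosome 9, 45924102 to 46135492, plus strand) had 79.8 and 78.6 CPM on day 1, 91.2 and 85.3 on day 7, 105 and 105 on day 10, and 92.8 and 85.4 on day 14. Its 2 highest libraries were those of day 10, and days 7 and 14 overlapped. The Log2FC was 0.25 to day 10 (adjusted p = 4.9e-05) and -0.24 to day 14 (adjusted p = 8.8e-05). *Sik2* (chromosome 9, 50800947 to 50920383, minus strand) had 15.5 and 15.6 CPM on day 1, 17.5 and 17.95 on day 7, 19.2 and 17.1 on day 10, and 13.8 and 14.5 on day 14. Day 14 was the lowest, with a Log2FC of -0.34 against day 10 (standard error 0.08, adjusted p = 0.00074).

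Neither kinase passed the test in the sort. *Sik3* had 113, 103 and 123 CPM among the CD61 low and 128, 119 and 124 CPM among the CD61 high libraries (Log2FC 0.13, standard error 0.08, adjusted p = 0.20). *Sik2* had 21.05, 17.0 and 26.7 CPM among the CD61 low and 22.4, 15.4 and 15.3 CPM among the CD61 high libraries (Log2FC -0.29, standard error 0.19, adjusted p = 0.22). Both overlapped between the groups, and the standard error of *Sik2* was the largest of the 9 members. *Sik1*, the member of the family known to be induced by cAMP, had 9.66 ± 0.495 CPM on day 10 and 21.0 ± 1.22 on day 14 (SD, n = 2) and was called at this step (Log2FC 1.04, standard error 0.09, adjusted p = 2.6e-10). Its Log2FC in the sort was 0.87 (adjusted p = 3.5e-05). Per length *Sik3* was the largest of the 3, with 68.6% of the family on day 1 and 65.9% on day 14.

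**Figure D4:**
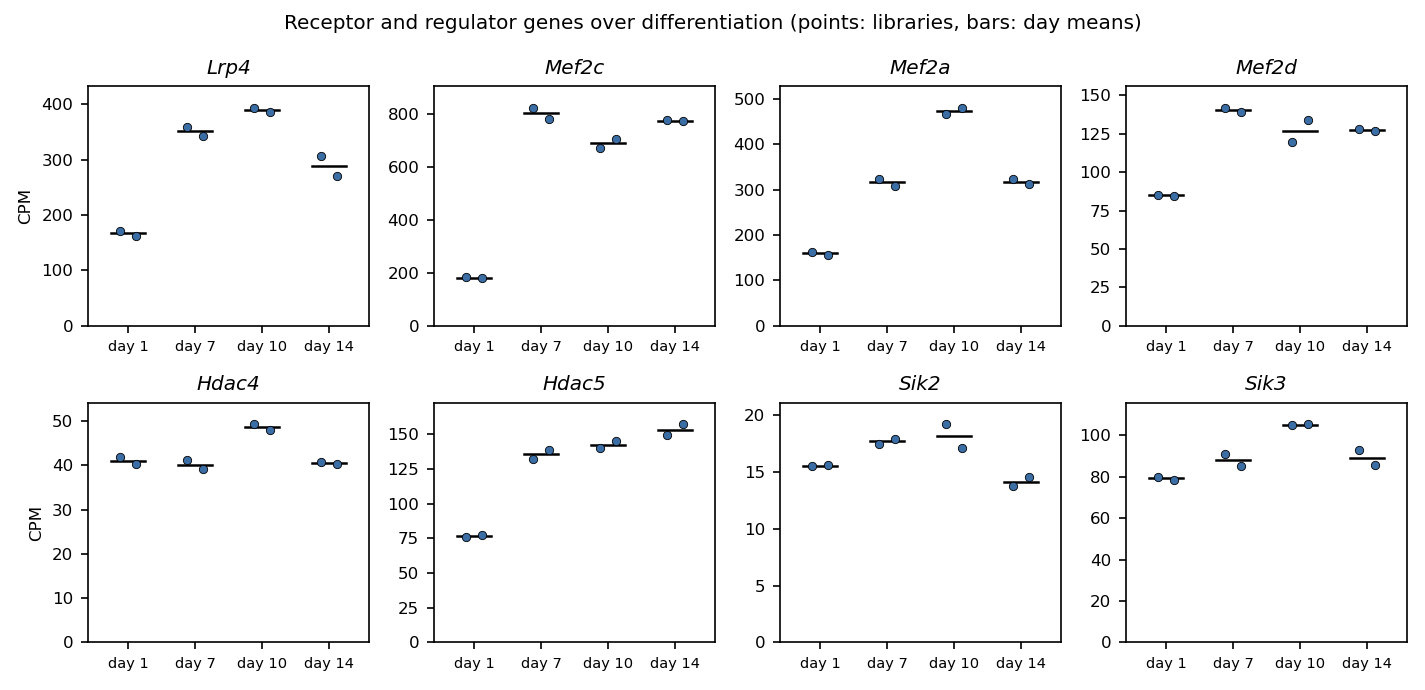
CPM (vertical axes, each starting at 0) of the receptor and regulator genes by day, with points for the 2 libraries of a day and horizontal bars for their means. *Mef2c*, *Mef2a*, *Mef2d*, *Hdac5* and *Lrp4* are higher on day 7 than on day 1, while *Hdac4*, *Sik2* and *Sik3* stay within a narrow range.

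**Figure D5:**
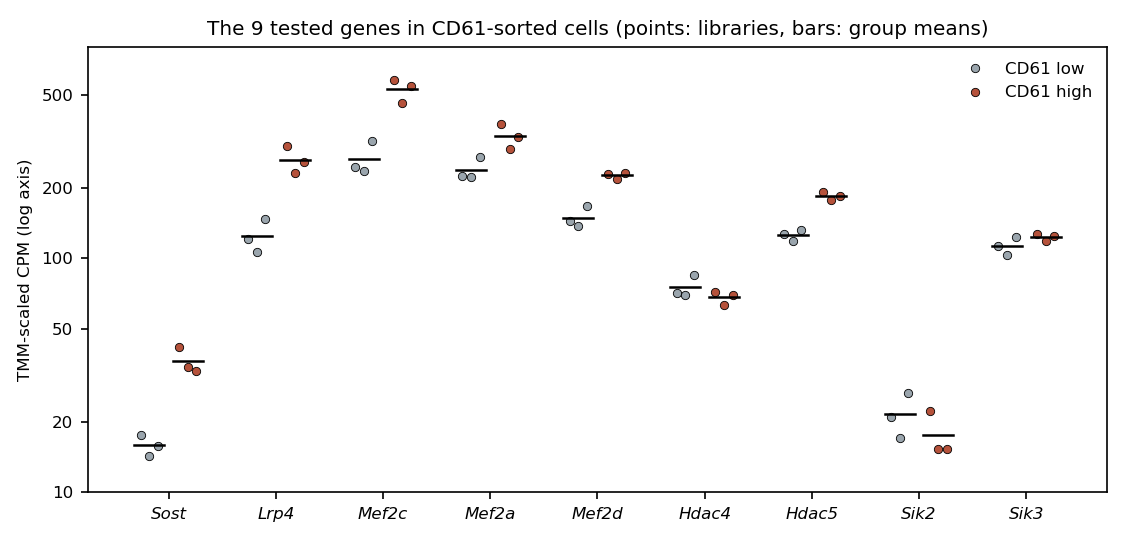
TMM-scaled CPM (log axis) of the 9 tested members in the 3 CD61 low (grey) and 3 CD61 high (red) libraries, with points for libraries and horizontal bars for group means. On this scale the groups stand apart for *Sost*, *Lrp4*, the MEF2 genes and *Hdac5*, and overlap for *Hdac4*, *Sik2* and *Sik3*.

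Most members also moved by less than the threshold on the fold change, which the adjusted p alone shows. Taking only an adjusted p under 0.01, 7 of the 9 tested members were higher by day 7 than on day 1 and 0 were lower, where 24.5% of all genes were higher and 32.0% lower. From day 7 to day 10, 5 members were higher and 2 lower, where 29.8% and 18.9% of all genes were. From day 10 to day 14, *Sost* and *Mef2c* were higher and *Lrp4*, *Mef2a*, *Hdac4*, *Sik2* and *Sik3* were lower, where 22.9% and 30.0% of all genes were. Day 14 against day 1 gave 7 higher and 0 lower, where 32.6% and 36.0% of all genes were. Day 10 against day 1, the added comparison, gave 8 higher and 0 lower, where 33.1% and 30.3% of all genes were. The sort gave 6 higher and 0 lower, against 19.4% and 16.0% of all genes.

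By mean level per length *Mef2c* stood first in every group, while *Hdac5* and *Sost* moved up in the order. On day 1 the order was *Mef2c* with 27.1 CPM per kb, *Mef2a* with 20.5, *Lrp4* with 18.9, *Mef2d* with 14.0, *Sik3* with 10.8, *Hdac4* with 10.5, *Hdac5* with 9.65 and *Sik2* with 1.76, and the libraries of *Sik3* and *Hdac4* overlapped. The place of *Hdac4* in this order also counts its first identifier alone. On day 14 *Mef2c* led with 114.9 CPM per kb, followed by *Mef2a* with 40.6, *Lrp4* with 32.6, *Mef2d* with 21.0, *Hdac5* with 19.3, *Sik3* with 12.1, *Hdac4* with 10.3, *Sost* with 8.57 and *Sik2* with 1.60, with no overlap between neighbours. *Sost* thus stood above *Sik2* by day 14 and below it on day 10. In the sort by TPM, 4 of 8 neighbouring pairs overlapped in CD61 low cells, *Mef2c* and *Mef2a* at the top among them, and 2 of 8 in CD61 high cells. *Sost* had 15.4 TPM in CD61 low cells, overlapping with *Sik2*, and 28.6 TPM in CD61 high cells, above *Hdac4* with 16.9.

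Most members had more than 1 transcript, and the shares that Salmon assigned to them in the sorted cells differ in how steady they were. *Sost* has a single transcript, and *Lrp4* rested almost wholly on one. Transcripts starting within 300 bases of the downstream RefSeq promoter of *Mef2c* given above carried 37.2 ± 4.49% of the *Mef2c* TPM in CD61 low and 39.1 ± 4.27% in CD61 high cells (SD, n = 3). The *Mef2c* promoter farthest upstream carried 5.25 ± 2.21% and 5.90 ± 3.41%. Most of the remainder was assigned to transcripts annotated to begin elsewhere. The printed promoters of *Mef2a* and *Hdac5*, the 2 with a MEF2 consensus, carried 98.7 ± 0.455% and 79.8 ± 2.24% of their genes in CD61 low cells. The CD61 high shares were 98.8 ± 0.282% and 79.6 ± 2.54%. For *Sik3* the full transcript of 25 exons held 68.9 ± 0.809% in CD61 low and 66.9 ± 2.70% in CD61 high cells, and one of 13 exons held 29.5 ± 0.762% and 33.1 ± 2.70%. *Sik2* shares varied most between libraries, from 0.00 to 45.8% for one coding transcript of 16 exons. For *Mef2d*, 42.4 ± 4.73% and 39.6 ± 5.04% lay on a transcript of 3 exons with no defined coding sequence.

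Genes of the relay beyond the members were described by lists that were chosen with earlier results of these data known. The 13 corepressor and 14-3-3 genes, partners of class IIa deacetylases, were all tested, and their Log2FC lay between -0.71 and 0.58 in the 5 comparisons. The list median was -0.19 for day 14 against day 1 and -0.11 in the sort. Of 17 kinases tested that are known to act on MEF2 or on class IIa deacetylases, *Camk2b* was called higher and *Camk4* lower for day 14 against day 1 (Log2FC 2.07 and -2.18), both with day means of at most 12.4 CPM, where 7.51% of all genes were called higher and 5.90% lower. In the sort 15 of these kinases were tested, with a list median of 0.20.

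Of a list of parathyroid hormone, cAMP, LKB1 and CRTC genes that act upstream of the SIKs or beside them, 25 were tested. For day 14 against day 1, 2 were called higher and 2 lower, with a list median of -0.24, where 7.51% of all genes were called higher and 5.90% lower. *Pth1r*, the parathyroid hormone receptor, went from 204 ± 1.13 CPM on day 1 to 1119 ± 35.0 on day 7 and 1157 ± 27.3 on day 14 (SD, n = 2), with a Log2FC of 2.50 on day 14 (standard error 0.04, adjusted p = 2.7e-27). *Prkar1b*, a regulatory subunit of protein kinase A, was the other gene called higher (Log2FC 1.24). *Adcy7*, an adenylyl cyclase, fell by 2.62 on the log2 scale, and *Pde4b*, a phosphodiesterase, fell by 1.097. Of 25 tested in the sort, *Pth1r* (Log2FC 1.90) and *Prkar1b* (1.56) were called higher in CD61 high cells and *Adcy7* lower (-1.78), where 4.84% of all genes were called higher and 4.37% lower.

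Genes known as MEF2 targets in other tissues, mostly muscle, had their largest median change in the first step. Of 15 such genes 9 were tested. For day 7 against day 1, 6 were called higher and 1 lower with a list median Log2FC of 2.31, where 4.49% of all genes were called higher and 4.62% lower. Most osteoblast and osteocyte markers, a list that includes *Sost*, moved alike at this step, with 7 of 10 tested called higher and a median of 2.33. *Sost* was not called, and *Col1a1* (Log2FC -0.33) and *Pdpn* (-0.31) were lower, short of the threshold on the fold change. From day 10 to day 14 the median of the MEF2 targets was 0.53. *Hrc*, a calcium-binding protein of the sarcoplasmic reticulum, had a Log2FC of 4.91 on day 7. *Klf4* and *Klf2*, which encode Kruppel-like factors, had 3.42 and 3.09, and *Myom1*, a protein of the sarcomere, had 2.61. From day 7 to day 10 the list median was -0.30, with 2 called higher and 1 lower, where 1.43% and 0.786% of all genes were. *Klf2* was called lower (Log2FC -1.71). Called higher were *Nr4a1*, an immediate early nuclear receptor (1.44), and *Jun* (1.09), which had been the gene called lower on day 7 (-1.20). Of the 7 tested in the sort 4 were called higher and 0 lower in CD61 high cells, with *Hrc* at 1.25 and *Myom1* at 1.19, where 4.84% of all genes were called higher and 4.37% lower. Of the osteoblast and osteocyte markers 9 of 10 tested, *Sost* among them, were called higher there, with a median of 1.49. The marker not called, *Pdpn*, was lower in CD61 high cells (Log2FC -0.48). *Acta1*, a skeletal muscle actin, was at 2.57 ± 0.218 CPM on day 10 and 24.0 ± 1.44 on day 14 (SD, n = 2), with *Myod1*, *Myog* and *Ckm* below 1 CPM, and its part in these counts was not tested.

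*Sost* lies with other Wnt antagonists on the output side of the relay. Of 11 other secreted Wnt antagonists 7 were tested, and all 7 were called for day 14 against day 1, 4 higher and 3 lower, where 7.51% of all genes were called higher and 5.90% lower. *Wif1* rose most (Log2FC 5.21), followed by *Notum* (1.75), and *Sfrp2* fell by 2.08. In the sort 3 of the 7 were called higher in CD61 high cells, *Notum* (Log2FC 1.86), *Wif1* (1.81) and *Sfrp2* (1.70), and *Dkk3* lower (-1.03), where 4.84% of all genes were called higher and 4.37% lower. *Wif1* was already at 288 ± 7.501 CPM on day 7 (SD, n = 2), with a Log2FC of 5.36 against day 1. Of 13 Wnt and beta-catenin target genes tested, 4 were called higher and 3 lower for day 14 against day 1. *Notum* and *Apcdd1* are in this list and in that of the antagonists, so the counts of both lists share them. The shares of all genes in that comparison were 7.51% and 5.90%. For day 14 against day 10, the step at which *Sost* rose 5.28-fold, 0 were called higher and 3 lower, *Notum* (Log2FC -1.77), *Apcdd1* (-1.46) and *Lef1* (-1.32), where 2.09% of all genes were called higher and 0.872% lower. In CD61 high cells, where *Sost* was also higher, 5 of the 12 tested were called higher and 0 lower, led by *Lgr6* (2.18) and *Notum* (1.86). Of all genes in the sort 4.84% were called higher and 4.37% lower.

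Neighbours of *Sost* on chromosome 11 had smaller changes than *Sost* for day 14 against day 1. Of 16 protein-coding genes whose start lies within 300 kb of the *Sost* start, 9 were tested, *Hdac5* at 263 kb among them. For day 14 against day 1, *Mpp2* (Log2FC 1.48) and *Dusp3* (1.00) were called higher, where 7.51% of all genes were, and *Sost* had a Log2FC of 4.22 on the same scale. *Mpp2*, a membrane scaffold gene 122 kb away, had 11.3 ± 0.269 CPM on day 1 and 33.4 ± 1.79 on day 14 (SD, n = 2), most of it gained after day 10. *Dusp3*, a phosphatase gene 19.99 kb away, had 44.1 ± 0.204 CPM on day 10 and 43.2 ± 1.46 on day 14. *Etv4*, an ETS factor gene 182 kb downstream, was called lower from day 10 to day 14 (Log2FC -1.04), where 0.872% of all genes were. *Meox1*, on the far side of the enhancer region, had 0 reads up to day 10 and 0.0873 ± 0.0822 CPM on day 14. In the sort the median Log2FC of the 9 was 0.24, and that of *Mpp2* was 0.80 (adjusted p = 2.5e-05), short of the threshold.

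Among 10725 genes tested with a day mean of at least 5 CPM, those most like *Sost* over the 8 differentiation libraries were *Pld2* (Pearson r 0.994), *Asb7* (0.993), *Egr2* (0.993), *Hes1* (0.992) and *Egr1* (0.992), on log2(CPM + 1). These r values are a description, since the 8 libraries share 4 days. Their sizes of change differ from that of *Sost*. *Pld2*, a phospholipase gene, went from 34.7 ± 0.275 CPM on day 1 to 56.6 ± 0.472 on day 14 (SD, n = 2), and *Egr1*, an immediate early transcription factor gene, from 25.4 ± 0.740 to 193 ± 10.4 CPM. Their Log2FC in the sort was between 0.19 (*Asb7*) and 0.58 (*Egr2*), below the threshold. Among the members, r with *Sost* was 0.75 for *Hdac5*, 0.62 for *Mef2c*, 0.54 for *Mef2a* and -0.46 for *Sik2*.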

How the data were processed

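RNA from Ocy454 cells was sequenced, and the libraries of the sorted cells were selected for polyadenylation. Reads of the time course were aligned by the authors (STAR, then HTSeq) and deposited as CPM per gene, with build, annotation and tool versions of this table not given in the sources used here. Whole reads came out of 99.997% of the CPM values above 0 (tolerance 0.01 of a read) and served the count tests. Of the sorted cells the authors deposited estimated counts and TPM per transcript from Salmon (GRCm39, release 104). Estimated counts were summed per gene (GENCODE M39, holding 99.3 to 99.4% of them), rounded and scaled by TMM. TPM served only for levels per length and transcript shares.

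Log2(CPM + 1) was compared in limma 3.58.1 (eBayes with a trend, all 8 libraries) over 12725 genes above 1 CPM in 1 library or more. The sort was compared by the quasi-likelihood test of edgeR 4.0.16 (R 4.3.3) over 12077 genes whose normalized count reached 5 in each of the 6 libraries. p-values were adjusted over all genes tested (Benjamini-Hochberg) and measure the spread between these libraries of 1 line. The test of the sort was unpaired. On simulated data for day 14 against day 1 and for the sort, both tests called 100% of 100 genes changed by a Log2FC of 2 and of 100 changed by 4. The simulation gave every gene the same dispersion and changed only genes above a set mean level. It held no change near a Log2FC of 1, so it says nothing of calls near the threshold or of genes at 0 reads. The members and lists were chosen with earlier results of these data known. The text names the 10 members, at most 4 called genes of a list and comparison with the largest Log2FC, protein-coding genes within 300 kb of *Sost* and the 5 genes most like it. Relatives and markers named without a call were chosen after their values were seen. Gene coordinates are GENCODE M39 on GRCm39, and promoters are RefSeq (GRCm38.p6). Alternatives were other pseudocounts, filters, scalings and fits, edgeR and DESeq2 1.42.0 on the recovered reads, DESeq2 in the sort, a replicate block and each library left out. Day 10 against day 1 was added after the data had been seen. One result is not reported here.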

Additional observations from a re-analysis of the deposited data

How the results depend on the processing

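Of the Log2FC values of members recomputed under the alternatives, 734 kept their direction and their side of the thresholds, 20 became calls, 6 lost the call and 14 changed sign. Of the counts of members called 77 held and 9 moved, where a count that went from 2 to 3 was taken as held. From day 1 to day 7 the count of 2 became 4 with edgeR and with DESeq2 on the recovered reads (*Sost* and *Mef2a* added), and for day 14 against day 1 it became 4 with TMM scaling, edgeR and DESeq2 (*Mef2a* and *Hdac5* added). In the sort it became 0 with scaling by library size alone and 0 with a glmTreat test against a Log2FC of 1. Leaving out each replicate in turn gave 2 to 3 members from day 1 to day 7, 3 for day 14 against day 1, 1 in both steps between, 4 for day 10 against day 1 and 1 to 3 in the sort, with 1 without CD61 low replicate 2 or CD61 high replicate 1. Signs changed near 0 for *Hdac4*, *Sik2* and *Mef2d*, and by a wider step for *Sik3* in the sort, whose main Log2FC was 0.13. *Hdac4* from day 1 to day 7 had a Log2FC of 0.012 with TMM scaling, 0.014 with edgeR and 0.020 with DESeq2, and between -0.067 and 0.0021 with a replicate left out. For day 14 against day 1 it had 0.014, 0.011 and 0.0076, and between -0.048 and 0.0067. *Sik2* from day 7 to day 10 had -0.035 with TMM scaling, -0.036 with edgeR and -0.036 with DESeq2, and between -0.047 and 0.11 with a replicate left out. *Mef2d* from day 10 to day 14 lay between -0.074 and 0.086 with a replicate left out. *Sik3* in the sort had -0.17 with scaling by library size alone, which moved the median of all genes to -0.29 and the calls over all genes from 585 higher and 528 lower to 316 and 963. The glmTreat test gave 188 and 213. From day 7 to day 10, limma called 182 genes higher and 100 lower, edgeR 332 and 216, DESeq2 278 and 199, and a pseudocount of 0.1 gave 377 and 175. From day 10 to day 14 it called 266 and 111, edgeR 502 and 227, DESeq2 441 and 197, and a pseudocount of 0.1 gave 425 and 246. With the replicate number as a block the counts of members called were 2, 1, 1, 2 and 2 in the 5 planned comparisons, no member's call changed, and the Log2FC of *Sost* in the sort was 1.19. The numbers were not taken as pairing the samples. Same-numbered sorted libraries correlated at -0.32, 0.22 and -0.061, and not every sample correlated best with its own number. Such correlations of deviations from group means of 3 libraries cannot settle whether libraries share a culture. The causes of these changes were not tested. Depth limits *Sost* on day 1 and *Sostdc1*, which were at 0 reads.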
